A study of Mus musculus with 16 samples.

Results

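The circadian clock genes described here are 10 genes of the mouse molecular clock, namely Arntl, Clock, Per1, Per2, Cry1, Cry2, Nr1d1, Nr1d2, Dbp and Tef. They were chosen by symbol from the gene count table, without a threshold on their values, and are 10 of its 22287 genes. All 10 were among the 12514 genes that passed edgeR's filter on low counts, which asks for the equivalent of 10 counts in the median library (0.424 CPM, counts scaled to a common library total) in at least 2 libraries. Of the 10, 7 reached that level in all 16 libraries. Dbp reached it in 0, Nr1d1 in 1 and Per2 in 4 of the 8 libraries treated with lipopolysaccharide (LPS), so these 3 were tested because of the groups in which they were higher, and counts for the other 7 are therefore given where they differ.

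The clock of mammalian cells is a feedback loop of transcription. BMAL1, the product of Arntl, and CLOCK bind E-box sequences as a pair and switch on the Per and Cry genes, whose proteins return to the nucleus and repress that pair. The same pair drives Nr1d1 and Nr1d2, the nuclear receptors REV-ERB alpha and beta that repress Arntl, and the output factors Dbp and Tef, which bind D-box sequences. Macrophages hold such a clock, and it is known for setting how strongly they respond to bacterial products at different hours.

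RNA-seq was done on bone marrow derived macrophages (BMDMs) of wild type C57BL/6J mice, 8 weeks old per the labels. Marrow cells were grown for 7 days with GM-CSF (GM) or M-CSF (M), growth factors that give macrophages of different phenotype, on dishes treated for cell attachment (TC) or untreated dishes (noTC). They were then left at steady state with vehicle, or challenged for 3 h with LPS, a component of the bacterial outer membrane. This gave 8 groups of 2 libraries, named by growth factor and dish (GM-TC, M-TC, GM-noTC, M-noTC), with the ending LPS after challenge, and each pair was described as biological replicates. The hour of harvest and any synchronisation of the cells are not given in the sources used here, so each value is a level at an unstated clock phase and says nothing of rhythm. These are cultures of bulk cells, in which fewer cells of a type and less RNA per cell cannot be told apart.

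Total counts lay between 17527802 and 31458363 per library, at which 3 counts correspond to 0.0954 to 0.171 CPM, a floor that covers counting error only. The 8 macrophage markers, such as Adgre1 and Csf1r, summed to 19543 CPM or more in each library with none at 0. Heart muscle markers, 8 genes such as Myh6 and Actc1, summed to 24.7 to 86.5 CPM in the 4 TC libraries with vehicle and to 0.374 to 1.32 CPM in the other 12. Neutrophil markers (6 genes) summed to 14.2 to 35.3 CPM in GM and 0.452 to 1.73 CPM in M, and fibroblast markers (5 genes) to 1.495 to 13.4 CPM. The GM-TC replicates differed most from each other, with a chi-square of 12.5 per gene against 1.91 to 5.13 in the other 7 groups.

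Promoter sequences are shown because the members are linked through a few DNA elements. RefSeq promoter windows (GRCm38.p6, 250 bases before and 50 after an annotated start) were matched by symbol to 9 of the 10 genes, with 14 windows in all, and Per2 had none. The E-box CACGTG, searched on both strands, was in 7.15% of all 32851 windows. Counted by gene rather than by window, 3 members had it in their windows, Per1, Cry1 and Tef. Stretches of these windows that lie outside annotated exons are given 5′ to 3′ on the gene's strand, with the E-box in capitals. Per1 is read from chr11:69098699-69098947 on the plus strand, Cry1 from chr10:85185065-85185304 on the minus strand and Tef from chr15:81811164-81811413 on the plus strand. The Cry1 stretch lies upstream of the annotated gene, and those of Per1 and Tef lie in introns of longer transcripts, before a start further inside the gene.
Per1: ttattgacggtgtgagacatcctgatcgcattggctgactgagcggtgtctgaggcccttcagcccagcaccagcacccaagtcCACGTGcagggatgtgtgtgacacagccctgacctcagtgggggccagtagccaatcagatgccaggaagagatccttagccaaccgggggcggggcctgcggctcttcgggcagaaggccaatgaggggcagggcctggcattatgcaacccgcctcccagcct
Cry1: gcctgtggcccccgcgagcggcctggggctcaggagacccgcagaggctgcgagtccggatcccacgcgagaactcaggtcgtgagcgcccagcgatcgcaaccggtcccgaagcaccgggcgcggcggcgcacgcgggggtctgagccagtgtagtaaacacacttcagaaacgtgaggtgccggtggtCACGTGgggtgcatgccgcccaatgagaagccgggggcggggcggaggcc
Tef: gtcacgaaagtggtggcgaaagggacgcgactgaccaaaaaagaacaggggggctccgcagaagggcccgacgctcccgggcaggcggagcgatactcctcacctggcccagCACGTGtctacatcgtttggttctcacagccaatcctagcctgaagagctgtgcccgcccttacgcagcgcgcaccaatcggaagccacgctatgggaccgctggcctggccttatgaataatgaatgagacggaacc
The E-boxes begin at position -166 in Per1, -60 in Cry1 and -138 in Tef, counted from the start. Another window of Tef, whose bases before the start lie within annotated exons and are not shown, has an E-box at -127. Upon LPS challenge Per1 and Tef fell and Cry1 rose on the TMM scale described with the levels, though by library size alone Cry1 did not rise in M. Whether the element is linked to the direction was not tested. The related element CACGTT, read as AACGTG on the other strand, was in 4.685% of all windows, and it lay in the windows of Cry1, Cry2 and Nr1d1. The core of the element bound by REV-ERB and ROR receptors, TAGGTCA, was in 2.606% of all windows and, among the members, in that of Arntl. It is shown in capitals within 30 bases of Arntl (chr7:113207530-113207559, plus strand), beside the AACGTG of Nr1d1 (chr11:98775388-98775417, minus strand) and Cry2 (chr2:92434218-92434247, minus strand).
Arntl: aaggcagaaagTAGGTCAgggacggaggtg
Nr1d1: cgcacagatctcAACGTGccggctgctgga
Cry2: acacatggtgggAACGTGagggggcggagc
The D-box TTATGTAA, its palindrome TTACGTAA and the cyclic AMP element TGACGTCA, found in 0.9376%, 0.1187% and 1.79% of all windows, did not occur in the 14 windows. A match says only that the letters are in this window, and the windows were not tested for binding.

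At steady state the order of the members differed between the growth factors. Levels between genes were compared as CPM per kilobase of annotated exon, scaled with edgeR's TMM factors. In GM-TC the highest were Cry1 with 5.49, Nr1d2 with 5.09 and Clock with 4.90 CPM per kilobase, which overlapped between neighbours, followed by Tef with 4.10. Per1 with 2.02 overlapped Arntl with 1.82, Cry2 with 1.13 overlapped Per2 with 0.919, Per2 overlapped Nr1d1 with 0.847, and Dbp was lowest with 0.234. In M-TC Nr1d2 was highest with 10.3, then Tef with 6.83 and Clock with 4.37, none overlapping the next. Cry1 with 2.65 and Per1 with 2.63 overlapped, as did Cry2 with 1.54, Dbp with 1.43 and Arntl with 1.40, and Nr1d1 with 0.747 and Per2 with 0.340 came last. Dbp thus stood between Cry2 and Arntl in M-TC but last in GM-TC, and Per2 was last in M-TC.

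**Figure D1:**
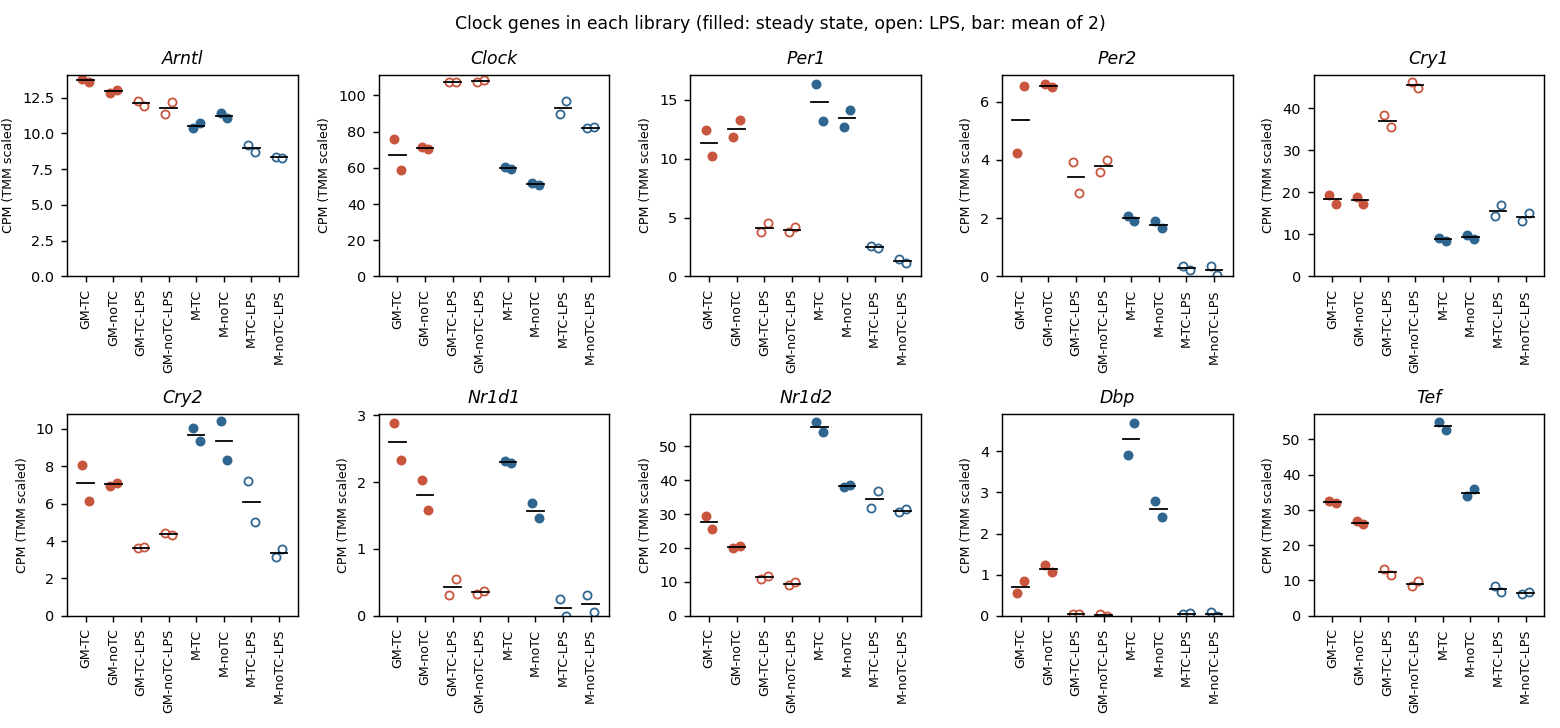
Each panel plots 1 clock gene, with TMM scaled CPM on a linear axis from 0 and the 8 groups along the horizontal axis; filled points are steady state libraries, open points LPS libraries, red GM, blue M, and the bar is the mean of 2. On this scale Clock and Cry1 are higher in each LPS library than in the steady state libraries of the same growth factor and dish. All the other genes shown are lower, Arntl by little.

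The comparison of LPS with vehicle asks which genes differ 3 h after challenge. It shares its libraries with the comparisons of growth factors and dishes that follow. Of the 10 members, 9 passed edgeR's quasi-likelihood test at a Benjamini-Hochberg adjusted p under 0.05 in GM on TC, 9 in GM on noTC, 10 in M on TC and 10 in M on noTC, where 67%, 67.7%, 74% and 72.3% of all tested genes passed. The same 2 were higher in each, Clock and Cry1, with 7, 7, 8 and 8 lower. Of all tested genes 32.8%, 33.6%, 37.6% and 36.4% were higher and 34.2%, 34%, 36.4% and 35.9% lower. More than 2-fold lower were 5, 5, 5 and 6 members, against 12.7%, 12.6%, 18.5% and 16.3% of all tested genes. The median log2 fold change of the 10 was -1.11, -0.94, -1.63 and -1.96, while that of all tested genes was -0.05, -0.03, -0.01 and -0.01. Among the 7 members above the filter level in all libraries, 2 were higher and 4, 4, 5 and 5 lower, with 3, 3, 2 and 3 more than 2-fold lower and medians of -0.95, -0.68, -0.65 and -0.43. With library size as the only scaling, the median of all tested genes moved to -0.53, -0.54, -0.83 and -0.73, and 2, 1, 0 and 0 members were called higher and 8, 8, 9 and 8 lower, where 17.2%, 16.4%, 16.3% and 16.1% of all tested genes were called higher and 62.7%, 63.8%, 69.1% and 68.5% lower. The LPS response itself differed between GM and M for 4 members on TC and 6 on noTC dishes, where 41.1% and 36.2% of all tested genes passed, and for 3 and 5 of those 7.

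On the TMM scale Arntl differed little upon LPS and Clock was higher. Arntl (chr7:113207465-113314126, plus strand, GRCm38 as all gene positions here) encodes BMAL1. Its TMM scaled CPM in replicates 1 and 2 was 13.8 and 13.6 in GM on TC, 12.8 and 13.0 in GM on noTC, 10.4 and 10.7 in M on TC, and 11.4 and 11.1 in M on noTC. Upon LPS it was 12.3 and 11.9, 11.4 and 12.2, 9.20 and 8.72, and 8.37 and 8.28 in the same order. Each LPS pair lay below its vehicle pair without overlap, but the differences were small. Arntl fell by 0.43 on the log2 scale in M-noTC (SE 0.10, edgeR adjusted p = 0.000504) and by 0.23 in M-TC (SE 0.10, adjusted p = 0.0459). The second call was lost without any 1 of its 4 libraries, where the adjusted p was 0.0663 to 0.164. By library size alone the 4 log2 fold changes of Arntl were -0.66, -0.64, -1.06 and -1.16, each below the shifted median of all genes, and all passed (largest adjusted p = 2.55e-06). In GM on TC and GM on noTC the log2 fold change was -0.18 and -0.13, with 95% intervals of -0.38 to 0.02 and -0.33 to 0.06.

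Clock (chr5:76209868-76304792, minus strand) encodes the partner of BMAL1. In GM on TC it was at 76.0 and 58.6 CPM with vehicle and 107 and 107 CPM with LPS, and in GM on noTC at 71.7 and 70.5 against 108 and 109 CPM. In M-TC it was at 60.5 and 59.6 against 89.5 and 97.0 CPM, and in M-noTC at 51.4 and 50.4 against 81.8 and 82.4 CPM. The groups did not overlap, and the rise was of similar size in the 4 settings. The fold changes were 1.60, 1.52, 1.55 and 1.61 for GM on TC, GM on noTC, M on TC and M on noTC, with edgeR adjusted p of 1.10e-07, 4.99e-07, 2.53e-07 and 7.15e-08. In M this direction belongs to the TMM scale. By library size alone Clock had a log2 fold change of -0.19 in M-TC (adjusted p = 0.0365) and -0.04 in M-noTC, and in GM of 0.20 on TC (adjusted p = 0.0333) and 0.09 on noTC, which did not pass (adjusted p = 0.283). These 4 values lie above the shifted median of all genes.

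The period genes, which encode the repressors PER1 and PER2, were lower upon LPS. Per1 (chr11:69095217-69109960, plus strand) was at 12.5 and 10.3 CPM in GM on TC, 11.8 and 13.3 in GM on noTC, 16.4 and 13.2 in M on TC, and 12.7 and 14.2 in M on noTC. Upon LPS it was at 3.77 and 4.503, 3.74 and 4.20, 2.56 and 2.44, and 1.49 and 1.15 CPM. The highest of the 8 LPS values, 4.503 CPM, was well below the lowest vehicle value, 10.3 CPM. Per1 was 2.72-fold and 3.16-fold lower in GM on TC and GM on noTC (SE of the log2 value 0.16 and 0.15) and 5.90-fold and 10.2-fold lower in M on TC and M on noTC (SE 0.17 and 0.19), and the largest adjusted p was 4.30e-08. The fall was larger in M than in GM by 1.12 on the log2 scale on TC (SE 0.24, adjusted p = 0.000824) and by 1.69 on noTC (SE 0.27, adjusted p = 2.71e-05).

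Per2 (chr1:91415982-91459324, minus strand) was at 4.24 and 6.52 CPM in GM on TC and 6.60 and 6.50 in GM on noTC, and upon LPS at 3.93 and 2.88, and 3.60 and 4.01 CPM. In M it was at 2.07 and 1.91 on TC and 1.89 and 1.67 on noTC, and upon LPS at 0.344 and 0.232, and 0.359 and 0.0499 CPM. The lowest GM vehicle library, GM-TC replicate 1, lay close to the LPS values, and without GM-TC replicate 2 or GM-TC-LPS replicate 2 the GM-TC call was lost, at log2 fold changes of -0.32 and -0.47. The fitted fall was 1.61-fold in GM on TC (adjusted p = 0.0136), 1.72-fold in GM on noTC (adjusted p = 0.00354), 6.69-fold in M on TC and 8.53-fold in M on noTC. In M, Per2 reached the filter level in 0 LPS libraries on either dish. It was tested because of the groups in which it was higher, so no p-value is given for its fall in M. The M-TC-LPS libraries held 11 Per2 counts in all and M-noTC-LPS 8, against 103 and 128 with vehicle, which gives 95% counting intervals of 3.64 to 14.0 and 4.28 to 20.6 for the fold. Per2 fell more in M than in GM by 2.06 on the log2 scale on TC (adjusted p = 0.00324) and 2.31 on noTC (adjusted p = 0.00221). Both tests carry the same limit of the filter, and without M-noTC-LPS replicate 2 the second difference was 1.4997.

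The cryptochromes, the other repressors of the loop, moved in opposite directions. Cry1 (chr10:85131700-85185064, minus strand) was at 19.4 and 17.3 CPM in GM on TC, 18.95 and 17.3 in GM on noTC, 9.21 and 8.49 in M on TC, and 9.90 and 8.92 in M on noTC. With LPS it was at 38.5 and 35.5, 46.2 and 44.8, 14.4 and 16.9, and 13.3 and 15.1 CPM. Both LPS libraries exceeded both vehicle libraries in each setting. The rise was 2.02-fold in GM on TC, 2.51-fold in GM on noTC, 1.76-fold in M on TC and 1.52-fold in M on noTC, with adjusted p of 2.15e-09, 1.07e-11, 8.88e-07 and 3.06e-05, but by library size alone the log2 fold change was -0.01 in M on TC and -0.13 in M on noTC. On noTC dishes the rise was larger in GM by 0.73 (SE 0.14, adjusted p = 0.000218), and on TC dishes the difference was 0.20 with a 95% interval of -0.10 to 0.50, which by library size alone was 0.55 and passed (adjusted p = 0.00405).

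Cry2 (chr2:92403646-92434043, minus strand) was at 8.08 and 6.16 CPM in GM on TC, 6.93 and 7.13 in GM on noTC, 10.1 and 9.35 in M on TC, and 10.4 and 8.31 in M on noTC. The LPS libraries were at 3.62 and 3.67, 4.45 and 4.33, 7.23 and 4.997, and 3.13 and 3.59 CPM. No LPS library reached a vehicle library of its setting. Cry2 fell by 0.95, 0.68, 0.65 and 1.47 on the log2 scale in GM on TC, GM on noTC, M on TC and M on noTC (SE 0.17 to 0.19), with adjusted p of 0.000136, 0.00202, 0.00135 and 1.85e-07. In M the fall was larger on noTC than on TC by 0.82 (SE 0.25, adjusted p = 0.0382), a call that was lost without any 1 of 6 of its 8 libraries. On noTC the fall was also larger in M than in GM, by 0.79 (SE 0.26, adjusted p = 0.0198), which was lost without GM-noTC-LPS, M-noTC or M-noTC-LPS replicate 1.

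The REV-ERB genes fell in each setting. Nr1d1 (chr11:98767932-98775333, minus strand) was at 2.88 and 2.34 CPM in GM on TC, 2.04 and 1.59 in GM on noTC, 2.31 and 2.28 in M on TC, and 1.68 and 1.46 in M on noTC. After LPS it was at 0.310 and 0.557, 0.332 and 0.365, 0.246 and 0, and 0.308 and 0.0499 CPM. These are 18, 15, 5 and 7 counts per pair against 115, 93, 119 and 113 with vehicle. The counts give falls of 5.85-fold, 5.17-fold, 17.2-fold and 8.77-fold, with 95% counting intervals of 3.54 to 10.2, 2.98 to 9.61, 7.19 to 54.1 and 4.12 to 22.3. Nr1d1 reached the filter level in only 1 of the 8 LPS libraries. It was tested because of its vehicle groups, so no p-value is given for its fall. Of the Nr1d1 exons, 8.55% (263 bases) overlap Thra on the opposite strand, and reads in the overlap cannot be told apart, since neither the library kit nor the counting is described as stranded. Thra itself was at 2.80 to 5.31 CPM with vehicle and 1.51 to 3.83 CPM with LPS.

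Nr1d2 (chr14:18204054-18239127, minus strand), the more abundant REV-ERB gene, was at 29.6 and 25.5 CPM in GM on TC, 20.1 and 20.7 in GM on noTC, 57.2 and 54.2 in M on TC, and 38.1 and 38.7 in M on noTC. The LPS pairs were at 10.9 and 11.8, 9.09 and 9.90, 31.9 and 37.0, and 30.6 and 31.5 CPM. Unlike Per1 and Tef, its fall was larger in GM. It was 2.41-fold and 2.14-fold lower in GM on TC and GM on noTC and 1.62-fold and 1.24-fold lower in M on TC and M on noTC, with adjusted p of 8.74e-11, 2.05e-09, 4.26e-08 and 0.00144. The difference between GM and M was -0.57 on TC (SE 0.12, adjusted p = 0.000721) and -0.79 on noTC (SE 0.13, adjusted p = 3.30e-05). By library size alone the TC difference was -0.23 and did not pass (adjusted p = 0.134).

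The output factors Dbp and Tef, which belong to the same family of leucine zipper proteins, fell in each setting. Dbp (chr7:45705088-45710203, plus strand) was at 0.555 and 0.846 CPM in GM on TC, 1.22 and 1.07 in GM on noTC, 3.91 and 4.68 in M on TC, and 2.80 and 2.39 in M on noTC. With LPS the values were 0.0517 and 0.0464, 0.0474 and 0, 0.0492 and 0.0581, and 0.103 and 0 CPM. That is 2, 1, 2 and 2 counts per pair of LPS libraries against 32, 59, 223 and 186 with vehicle. The ratio of these counts, scaled with TMM, is 14.7 in GM on TC with a 95% counting interval of 3.74 to 126, 49.2 in GM on noTC (8.50 to 1976), 80.8 in M on TC (22.1 to 671) and 50.5 in M on noTC (13.8 to 420). The depth does not order these falls, since the intervals overlap. Of the Dbp exons, 18% (539 bases) overlap Sphk2 on the opposite strand, which was at 37.8 to 46.5 CPM with vehicle and 29.7 to 48.5 CPM with LPS.

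Tef (chr15:81802421-81826863, plus strand) was at 32.5 and 31.97 CPM in GM on TC, 26.8 and 26.1 in GM on noTC, 54.8 and 52.6 in M on TC, and 34.0 and 35.8 in M on noTC. Upon LPS it was at 13.4 and 11.7, 8.53 and 9.72, 8.51 and 6.80, and 6.11 and 6.63 CPM. The M libraries were the higher at steady state and the lower upon LPS. The fall was 2.57-fold in GM on TC, 2.89-fold in GM on noTC, 6.97-fold in M on TC and 5.48-fold in M on noTC (SE of the log2 value 0.09 to 0.10), and the largest adjusted p was 1.30e-11. It was larger in M by 1.44 on the log2 scale on TC (SE 0.14, adjusted p = 2.22e-08) and by 0.92 on noTC (SE 0.15, adjusted p = 2.80e-05).

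**Figure D2:**
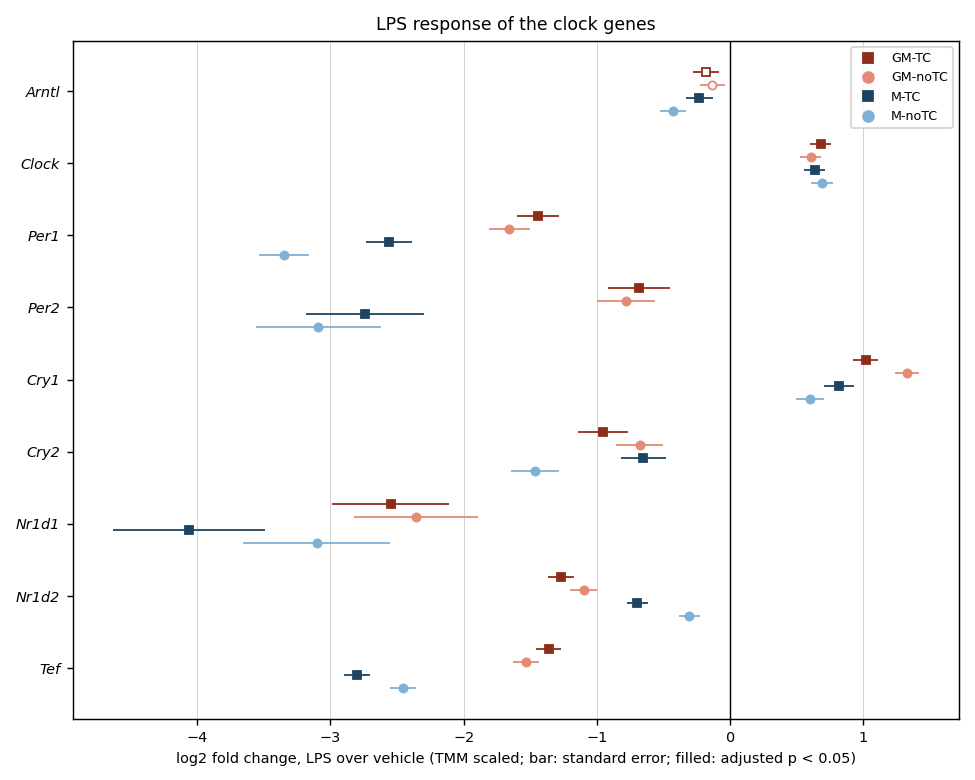
Log2 fold change of LPS over vehicle (horizontal axis, TMM scaled) for 9 clock genes in the 4 settings, with bars for the standard error and filled symbols for an edgeR adjusted p under 0.05; Dbp is left out because at most 2 counts were left in each LPS group. Only Clock and Cry1 lie to the right of 0, which by library size alone they do not in M, and Per1, Per2 and Tef lie further left in M (blue) than in GM (red).

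These LPS differences were present on noTC dishes, where heart muscle markers summed to 0.381 to 0.915 CPM with vehicle and 0.617 to 1.02 CPM with LPS. On TC dishes those markers were at 24.7 to 86.5 CPM with vehicle and 0.374 to 1.32 CPM with LPS, and their part in the TC values was not tested.

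The comparison of GM with M asks how the level of the clock genes differed between the 2 kinds of culture. The paper's methods give a higher seeding density for GM than for M cultures. Growth factor and seeding density therefore cannot be told apart in it, nor in the differences in LPS response between GM and M. Of the 10 members, 8 passed on TC and 8 on noTC dishes at steady state, where 61.5% and 62.1% of all tested genes passed, with 3 higher and 5 lower in GM on TC and 4 and 4 on noTC. Upon LPS, 8 passed on TC and 7 on noTC dishes, where 66.8% and 66.1% of all tested genes passed, with 6 higher and 2 lower, and 6 higher and 1 lower. Of all tested genes 32.6%, 31.4%, 33.9% and 33.5% were higher in GM and 28.9%, 30.7%, 32.9% and 32.6% lower, for TC, noTC, TC-LPS and noTC-LPS. The counts of members called are not far above the shares of all genes. The median log2 fold change of GM over M was -0.11 and 0.05 at steady state on TC and noTC and 0.56 and 0.51 upon LPS, against 0.02, 0, 0.03 and 0.02 for all tested genes. Among the 7 members above the filter level in all libraries, 2, 3, 5 and 5 were higher and 4, 3, 2 and 1 lower, for TC, noTC, TC-LPS and noTC-LPS. Their medians were -0.39, -0.10, 0.43 and 0.50 in the same order, so the noTC median at steady state changed sign. By library size alone 2, 3, 6 and 6 of the 10 members were higher and 5, 5, 2 and 1 lower. Of all tested genes 19.6%, 19.7%, 35.5% and 29.7% were then higher and 50.8%, 52.1%, 31.3% and 36.4% lower.

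Repressor genes Per2 and Cry1 were higher in GM in the 4 settings. Per2, with the values given above, was 2.73-fold higher on TC and 3.70-fold higher on noTC at steady state (adjusted p = 2.24e-05 and 2.23e-07), and its lowest GM vehicle library was above its highest M library. Upon LPS the fitted fold was 11.4 and 18.4, resting on the few counts left in M. Leaving out a library, the log2 fold change was 3.27 to 3.84 on TC and 3.39 to 6.11 on noTC, where the ends come from leaving out M-noTC-LPS replicate 2 and replicate 1. Cry1 was 2.06-fold higher on TC and 1.93-fold on noTC at steady state, and 2.37-fold and 3.21-fold higher upon LPS, with a largest adjusted p of 2.29e-08. Even with LPS, the M libraries (13.3 to 16.9 CPM) stayed below the GM libraries without it (17.3 to 19.4 CPM).

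Nr1d2 was the member with the most even difference in the other direction. It was 2.03-fold and 1.89-fold lower in GM on TC and noTC at steady state and 3.02-fold and 3.27-fold lower upon LPS (SE of the log2 values 0.08 to 0.10), and the largest adjusted p was 1.21e-09. On the TMM scale its lowest M library, at 30.6 CPM, was above its highest GM library, at 29.6 CPM, across all 16. By library size alone they overlapped, with 25.2 CPM in M-TC-LPS replicate 1 and 33.4 CPM in GM-TC replicate 1. Dbp was 5.99-fold lower in GM on TC (SE 0.32, adjusted p = 3.90e-07) and 2.25-fold lower on noTC (SE 0.30, adjusted p = 0.00167) at steady state, and no fold is given upon LPS, where both growth factors were at or under the floor.

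Tef changed sides with LPS on TC and on noTC dishes, and Per1 was clearly higher in GM only upon LPS. Tef was lower in GM by 0.74 on TC and 0.40 on noTC at steady state (adjusted p = 2.50e-08 and 0.000109) and higher by 0.70 and 0.52 upon LPS (adjusted p = 1.65e-05 and 0.000924). Per1 was lower in GM by 0.39 on TC (adjusted p = 0.0122), a call that was lost without GM-TC replicate 2 or M-TC replicate 1. On noTC its log2 fold change was -0.10, which by library size alone was -0.39 and passed edgeR's test (adjusted p = 0.00705). Upon LPS it was higher in GM by 0.73 and 1.59 (adjusted p = 0.00416 and 4.05e-06), and without GM-TC-LPS replicate 2 the adjusted p of the first was 0.0562. The differences in LPS response given above test whether the difference between GM and M varied with LPS, not whether its sign changed.

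Arntl, Clock and Cry2 differed by less than 2-fold. Arntl was higher in GM by 0.38, 0.21, 0.43 and 0.50 on the log2 scale for TC, noTC, TC-LPS and noTC-LPS, with adjusted p of 0.00134, 0.0496, 0.000950 and 0.000197. The noTC call was lost without any 1 of its 4 libraries. By library size alone its steady state difference was 0.07 on TC and turned to -0.08 on noTC, neither of which passed. Clock was higher in GM by 0.48 on noTC, 0.20 on TC-LPS and 0.40 on noTC-LPS (adjusted p = 1.44e-05, 0.0257 and 0.000128), and on TC the difference was 0.16 with a 95% interval of -0.01 to 0.33. The GM-TC replicates of Clock were 76.0 and 58.6 CPM, and without replicate 2 the TC difference was 0.34 and passed. The TC-LPS call of Clock was lost without any 1 of 3 of its 4 libraries. Cry2 was lower in GM by 0.46, 0.40 and 0.76 for TC, noTC and TC-LPS (adjusted p = 0.0166, 0.0255 and 0.00186), while on noTC-LPS its log2 fold change was 0.38 (95% interval -0.05 to 0.82). These calls were lost on TC without GM-TC replicate 2 or M-TC replicate 1, on noTC without any 1 of 3 of the 4 libraries, and on TC-LPS without M-TC-LPS replicate 1. Nr1d1, with log2 fold changes of 1.69 on TC-LPS and 0.96 on noTC-LPS from few counts, passed in 0 of the 4 settings by edgeR, with 1 at an unadjusted p under 0.05 (TC-LPS, which passed without replicate 1 of either group), and its steady state log2 fold changes were 0.17 and 0.21 with 95% intervals of -0.50 to 0.85 and -0.49 to 0.91.

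**Figure D3:**
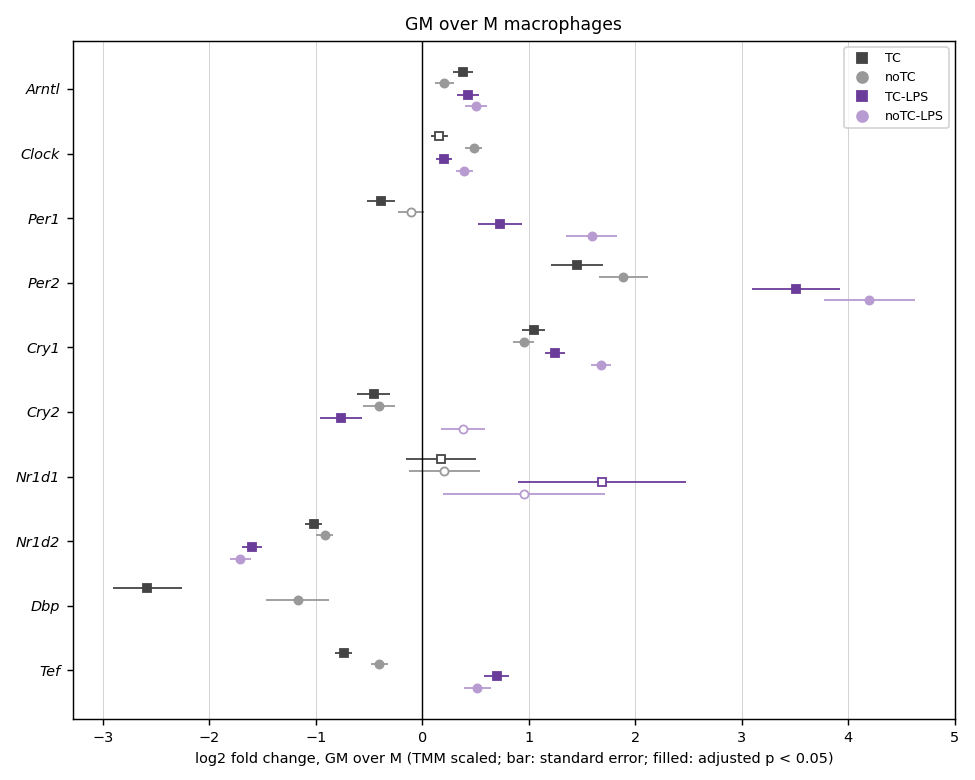
Log2 fold change of GM over M (horizontal axis, TMM scaled) for the clock genes on TC and noTC dishes at steady state (grey) and upon LPS (purple), with bars for the standard error and filled symbols for an edgeR adjusted p under 0.05; the LPS values of Dbp are left out for low counts. Per2 and Cry1 lie to the right and Nr1d2 to the left in the 4 settings, and Per1 and Tef lie to the right only upon LPS.

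The comparison of noTC with TC dishes is a question of the study. Fewer clock genes passed its test than upon LPS or between the growth factors, and so did fewer of all tested genes. At steady state 2 of the 10 members passed in GM and 4 in M, where 7.54% and 27.2% of all tested genes passed. Upon LPS 1 passed in GM and 2 in M, where 2.8% and 23.3% of all tested genes passed. All of these were lower on noTC dishes, and 0 members were higher by edgeR in any of the 4 comparisons. Among the other 7 members the call of Dbp in M drops out, leaving 3. Of all tested genes 2.85%, 11.1%, 0.727% and 12.9% were lower and 4.69%, 16.1%, 2.08% and 10.4% higher in GM, M, GM-LPS and M-LPS. At an unadjusted p under 0.05, 1 was higher, Cry1 in GM-LPS, and DESeq2 called 0 higher. In edgeR with no filter, and with only the libraries of the comparison, that difference of Cry1 was called, at 0.31 (adjusted p = 0.0142) and 0.29 (adjusted p = 0.0191). The median log2 fold change of the 10 was -0.01, -0.20, -0.05 and -0.16 in GM, M, GM-LPS and M-LPS, against 0, 0.01, 0.0035 and -0.00022 for all tested genes. For the 7 members above the filter level in all libraries it was -0.01, -0.13, -0.03 and -0.18.

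Nr1d2 and Tef were the members lower on noTC dishes in both kinds of macrophage at steady state. Nr1d2 fell from 29.6 and 25.5 to 20.1 and 20.7 CPM in GM, a log2 fold change of -0.43 (SE 0.09, edgeR adjusted p = 0.00214). In an edgeR fit of only the libraries of the comparison, this difference did not pass (adjusted p = 0.0592). In M it fell from 57.2 and 54.2 to 38.1 and 38.7 CPM, a log2 fold change of -0.54 (SE 0.07, adjusted p = 7.34e-06). Tef fell from 54.8 and 52.6 to 34.0 and 35.8 CPM in M, by 0.62 (SE 0.07, adjusted p = 1.32e-06). In GM the Tef difference was -0.29 (SE 0.08, adjusted p = 0.0340), a call that was lost without any 1 of 3 of its 4 libraries. Upon LPS, Tef was lower on noTC by 0.46 in GM (adjusted p = 0.0227), which was lost without replicate 1 of either group. In the GM comparisons the heart muscle markers were at 51.6 and 24.7 CPM on TC and 0.780 and 0.915 CPM on noTC, and in M at 86.5 and 49.6 CPM against 0.420 and 0.381 CPM. Their part in the steady state differences was not tested.

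In M, Clock was lower on noTC by 0.24 (SE 0.08, adjusted p = 0.0297) and Dbp by 0.73 (SE 0.25, adjusted p = 0.0369) at steady state, and each of these was lost without any 1 of its 4 libraries. In M-LPS, Per1 was lower on noTC by 0.93 (SE 0.27, adjusted p = 0.0141) and Cry2 by 0.87 (SE 0.20, adjusted p = 0.00288). The Per1 call was lost without M-TC-LPS replicate 1 or M-noTC-LPS replicate 2 and the Cry2 call without M-TC-LPS replicate 1, while Tef passed in M-LPS without M-TC-LPS replicate 2, at -0.42 (adjusted p = 0.0490). Clock in GM rests on the spread of the GM-TC pair. With both libraries its difference was 0.09 (95% interval -0.08 to 0.25), and without GM-TC replicate 1 it was 0.28 and passed (adjusted p = 0.00256). For Arntl the 95% intervals were -0.27 to 0.11 in GM and -0.10 to 0.28 in M at steady state.

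Tests of whether the dish difference itself varied gave few calls. Between LPS and vehicle, 0 of 10 members passed in GM by edgeR, where 0.783% of all tested genes passed, with 1 at an unadjusted p under 0.05 (Cry1) and 0 by DESeq2. In M 2 passed, where 10.6% of all tested genes passed. These were Cry2, given above, and Nr1d2, whose dish difference was smaller upon LPS by 0.39 (SE 0.11, adjusted p = 0.0252), a call lost without any 1 of 6 of its 8 libraries. Between GM and M, 1 passed at steady state and 2 upon LPS, where 11.2% and 10.6% of all tested genes passed. Among the 7 members above the filter level in all libraries, 0 and 2 passed. At steady state Dbp passed by 1.41 (SE 0.45, adjusted p = 0.0476), from 0.555 and 0.846 to 1.22 and 1.07 CPM in GM and from 3.91 and 4.68 to 2.80 and 2.39 CPM in M, and with the replicate number as a block the adjusted p was 0.0554. The Dbp call was lost without any 1 of 7 of its 8 libraries. Upon LPS these were Cry1 by 0.43 (SE 0.14, adjusted p = 0.0457) and Cry2 by 1.14 (SE 0.29, adjusted p = 0.0112). The Cry1 call was lost without any 1 of 6 of its 8 libraries and the Cry2 call without replicate 1 of M-TC-LPS or M-noTC-LPS. Without GM-TC replicate 1, Clock and Tef passed at steady state too, by 0.52 (adjusted p = 3.83e-05) and 0.34 (adjusted p = 0.0397), and so did Clock in GM between LPS and vehicle, by -0.27 (adjusted p = 0.0490).

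**Figure D4:**
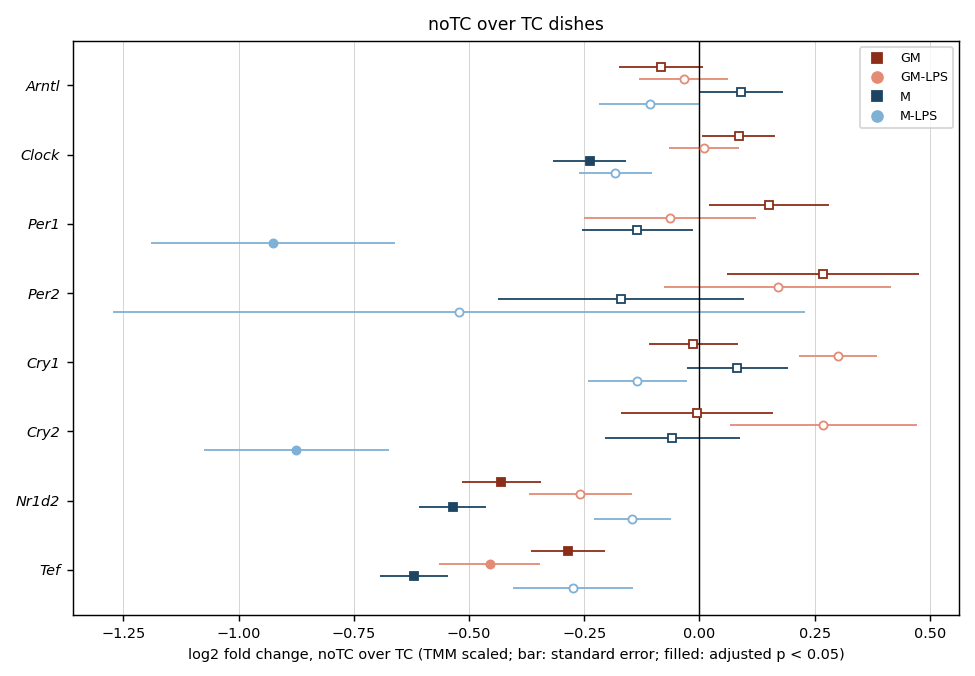
Log2 fold change of noTC over TC dishes (horizontal axis, TMM scaled) for 8 clock genes in GM and M at steady state (dark) and upon LPS (light), with bars for the standard error and filled symbols for an edgeR adjusted p under 0.05; Dbp and Nr1d1 are left out for low counts. All filled symbols lie to the left of 0, and Nr1d2 and Tef are filled at steady state in both GM and M.

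Of 23 further genes of the clock, 19 were tested, and the other 4 did not pass the filter. Upon LPS 15, 16, 16 and 19 of the 19 passed in GM on TC, GM on noTC, M on TC and M on noTC, with 9, 9, 8 and 8 higher and 6, 7, 8 and 11 lower, where 67%, 67.7%, 74% and 72.3% of all tested genes passed. Their median log2 fold changes were 0.09, -0.02, -0.50 and -0.66. By library size alone 4, 5, 5 and 4 were called higher and 11, 9, 14 and 14 lower, beside 62.7% to 69.1% of all tested genes lower. The response differed between GM and M for 9 of the 19 on TC and 11 on noTC dishes, and that difference is given for Bhlhe41, Rora and Nfil3, which were chosen after their values were seen because it was largest in them.

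A first group of these genes fell in each setting. Per3, the third period gene, was at 4.51 to 8.69 CPM with vehicle and 0.502 to 1.48 CPM with LPS, and fell with log2 fold changes of -2.29, -2.79, -2.55 and -3.29 in GM on TC, GM on noTC, M on TC and M on noTC (SE 0.21 to 0.25). Usp2, a deubiquitinase with a clock-driven transcript, was at 1.48 to 4.19 CPM with vehicle and 0.228 to 0.649 CPM with LPS, and fell by 2.02 to 2.96. Npas2, a paralogue of Clock, fell with log2 fold changes between -1.26 and -2.74, so the paralogues differed in direction on the TMM scale. Wee1, a kinase that holds back mitosis and a known clock target, fell by 1.86 and 1.71 in GM and by 0.64 and 0.68 in M. The largest edgeR adjusted p among these 16 values was 0.00156.

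The transcriptional repressors Bhlhe40 and Bhlhe41, also named DEC1 and DEC2, fell as well. At steady state Bhlhe40 set the growth factors further apart than any member did, at 312 to 329 CPM in GM and 18.7 to 22.7 CPM in M. It was higher in GM by 3.81 to 4.04 on the log2 scale in the 4 settings and fell upon LPS by 1.40 to 1.79. Bhlhe41 fell by 1.06 and 0.93 in GM and by 2.90 and 2.91 in M, a difference of 1.84 on TC and 1.98 on noTC (SE 0.09 for each, adjusted p = 2.25e-13 and 1.23e-13).

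The genes that act on the REV-ERB element and the D-box from the other side did not move together. Rora encodes an activating receptor for the kind of element whose core letters lie in the Arntl window. It was at 25.6 to 33.4 CPM in GM with vehicle and 34.2 to 36.0 CPM with LPS. Its log2 fold change there was 0.28 on TC and 0.41 on noTC, which by library size alone turned to -0.20 and -0.09. In M Rora fell from 13.2 to 17.5 CPM to 4.76 to 6.47 CPM, by 1.80 and 1.21. The difference between GM and M was 2.08 on TC and 1.63 on noTC (adjusted p = 1.16e-09 and 3.63e-08). Nfil3, the repressor at D-boxes, rose from 8.98 to 9.75 CPM to 49.0 to 54.4 CPM in M, by 2.57 and 2.38, and by 0.65 and 0.66 in GM, where by library size alone the values were 0.17 and 0.15 and did not pass. The difference was -1.92 on TC and -1.72 on noTC (adjusted p = 2.93e-11 and 1.12e-10).

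Some further genes act on the PER and CRY proteins, and of these Fbxw11, Sirt1, Nono and Csnk1d were higher upon LPS in the 4 settings on the TMM scale, which for Csnk1d turned by library size alone. The ubiquitin ligase subunit Fbxw11, which acts on PER proteins, rose by 1.32 to 1.98. Sirt1, a deacetylase, rose by 1.04 to 1.44 and Nono, a partner of PER proteins, by 0.87 to 1.37. The kinase gene Csnk1d rose by 0.22 to 0.51, which turned to -0.01 to -0.51 by library size alone, and Csnk1e had log2 fold changes of -0.12 and -0.02 in GM and fell by 0.61 and 0.66 in M. Between GM and M, 12 of the 19 passed on TC and 13 on noTC at steady state, and 13 and 14 upon LPS, where 61.5%, 62.1%, 66.8% and 66.1% of all tested genes passed. Between the dishes 3 passed in GM and 8 in M at steady state, and 1 and 5 upon LPS, where 7.54%, 27.2%, 2.8% and 23.3% of all tested genes passed.

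**Figure D5:**
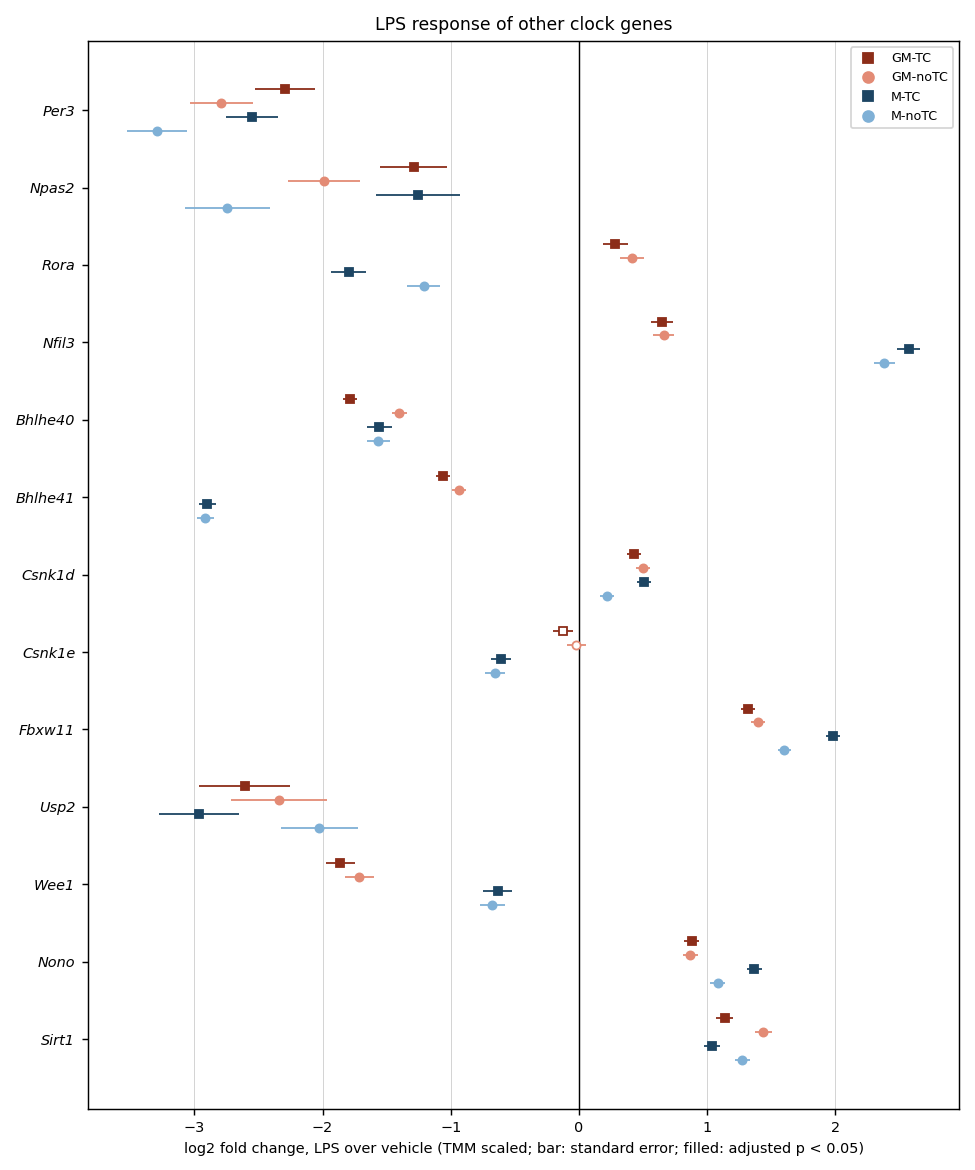
Log2 fold change of LPS over vehicle (horizontal axis, TMM scaled) for the 13 further clock genes described here in the 4 settings, with bars for the standard error and filled symbols for an edgeR adjusted p under 0.05. Per3, Npas2, Usp2, Wee1 and both Bhlhe genes lie to the left of 0 and Fbxw11, Sirt1 and Nono to the right in each setting, whereas Rora lies to the right only in GM, where it turns negative by library size alone, as Csnk1d does in the 4 settings.

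The genes whose pattern over the 16 libraries was most like a member were looked for among the 9208 others with a mean of at least 5 CPM (9209 for members below that level). Pearson's r is given as a description only, since the libraries fall into 8 groups of 2, share the LPS difference and are not independent points. The closest gene was Med22 for Tef and 2610044O15Rik8 for Per1 (r = 0.99 for each), Tnfsf8 for Cry1 (0.99), and Git1 for Arntl, Ptpn11 for Clock, Oxct1 for Nr1d2, Surf2 for Nr1d1 and Arid3a for Per2 (0.98 for each). For Cry2 it was Map3k11 with 0.94. No closest gene was itself a member, and the closest gene of Dbp is not given.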

How the data were processed

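RNA was sequenced from 16 libraries, and groups were taken from the labels. The authors deposited expected counts per gene from RSEM, without normalization. The submitters' notes name fastp 0.18.0, Bowtie2 2.2.8, HISAT2, StringTie 1.3.1, DESeq2 and edgeR, while the build and gene annotation behind the counts are not given in the sources used here. Expected counts were rounded and filtered by group with edgeR 4.0.16 in R 4.3.3, then scaled with TMM. A single quasi-likelihood fit over 8 groups was made for 12514 genes, with a common dispersion of 0.00226, a biological coefficient of variation of 4.75%. Adjusted p-values are Benjamini-Hochberg values over all tested genes, called under 0.05, and standard errors follow from the test's p and degrees of freedom. Count intervals are exact at 95% and cover counting error only. The 2 libraries per group are called biological replicates, but no source says they came from separate mice, so p-values measure only the spread between these libraries. The script was tested on simulated data.

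Gene positions and exon lengths came from the GENCODE annotation of GRCm38 and promoters from RefSeq. The members, the 23 further clock genes and the marker lists were chosen with earlier results of these data known. All members were named whatever their result, any of the 23 further genes could be named, genes overlapping a member were added by annotation, and the 3 genes closest in pattern to each member were ranked by Pearson's r, of which the closest is given. A few genes are not reported here. Alternatives were other scalings, no filter, only the libraries of the comparison, a replicate block, DESeq2 1.42.0, subtracting a share of the other libraries, and leaving out each library.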

Additional observations from a re-analysis of the deposited data

Results flagged for a closer look

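The LPS response differed between GM and M by edgeR's interaction test for 4 members on TC and 6 on noTC dishes, given as the log2 response in GM minus that in M, where 41.1% and 36.2% of all tested genes passed. By library size alone 6 members passed on TC, each with a positive difference, as Cry1, Clock and Arntl passed and Nr1d2 did not, and 7 passed on noTC. On TC dishes the differences were 1.12 for Per1, 2.06 for Per2, 1.44 for Tef and -0.575 for Nr1d2, and among the further genes chosen for this difference 1.84 for Bhlhe41, 2.08 for Rora and -1.92 for Nfil3. On noTC dishes they were 1.69 for Per1, 2.31 for Per2, 0.73 for Cry1, 0.788 for Cry2, 0.922 for Tef and -0.793 for Nr1d2, and 1.98 for Bhlhe41, 1.63 for Rora and -1.72 for Nfil3. The adjusted p lay between 1.23e-13 and 0.0198. Per1, Per2, Tef and Nr1d2 were thus called on both dishes with the same sign on the TMM scale. For Nr1d2 on TC this call depends on the scaling, as given above. The Per2 difference on noTC rests on few counts in M and was smaller without M-noTC-LPS replicate 2. Bhlhe41, Rora and Nfil3 were chosen because this difference was largest in them. Their calls on both dishes follow from that choice and cannot serve as a test of it.

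The LPS response of M differed between noTC and TC dishes by 0.39 for Nr1d2 and -0.816 for Cry2. The dish difference (noTC over TC) of GM minus that of M was 1.41 for Dbp at steady state, and 0.435 for Cry1 and 1.14 for Cry2 upon LPS. The adjusted p of these 5 lay between 0.0112 and 0.0476.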

How the results depend on the processing

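Of 198 log2 differences of the 10 members, Rora, Nfil3 and Bhlhe41, library size as the only scaling turned 5 that had passed, not counting values called in neither scaling: Arntl between the growth factors on noTC to -0.084, Clock upon LPS to -0.19 in M on TC and -0.036 on noTC, and Cry1 upon LPS to -0.010 in M on TC and -0.13 on noTC. The shift of the median of all genes is given with the LPS results, and between the growth factors at steady state it was -0.29. Relative to it Clock and Cry1 stayed above the median. Counts of members called upon LPS and between the growth factors stayed within 1.5 times the reported count in every alternative. Leaving out a library left 8 to 9 calls upon LPS in GM on TC and 9 on noTC, and 9 in M on TC and 10 on noTC.

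The counts for the dish were less stable. In GM the 2 calls became 1 with DESeq2 and 0 with only the libraries of the comparison, where calls over all genes fell from 944 to 764 and 325, and 1 to 3 without a library, where all calls were 425 to 2041. In GM-LPS the 1 call became 2 with no filter or only those libraries, and 0 to 1 without a library. In M the 4 calls became 2, and in M-LPS the 2 calls became 0 to 3, without a library. For the dish by LPS, 0 calls in GM became 0 to 1, and 2 in M became 1 by library size, 0 with DESeq2 and 0 to 2 without a library. For the dish by growth factor at steady state, 1 call became 2 with DESeq2 size factors, library size, no filter or only those libraries, 0 with DESeq2, and 0 to 2 without a library. Upon LPS 2 calls became 1 by library size or with DESeq2 and 0 to 2 without a library. The cause was not tested.

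With the replicate number as a block, the count for the dish by growth factor at steady state was 0, and Arntl lost its call upon LPS in M-TC (adjusted p = 0.0527) and between growth factors on noTC (0.0576), with no other call changed. Over the tested genes, same-numbered libraries deviated with a correlation of -0.0636 to 0.0200. These deviations include the counting error of each library, so the correlation cannot tell whether the numbers pair the samples. Subtracting 0.675% (GM) or 0.600% (M) of the mean of the remaining libraries from the noTC vehicle libraries changed 0 calls. Depth limits Dbp, Nr1d1 and Per2 upon LPS, where a pair held 1 to 18 counts in M and, for Dbp and Nr1d1, in GM.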
